A study of Bos indicus x Bos taurus with 78 samples.

Results

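Dark-cutting beef is meat that stays dark and keeps a high pH after slaughter, and the labels of this study give each dark-cutting steer a fraction as its degree. The degrees were compared within the dark-cutting steers: 8 steers of higher degree (3 of 1/2, 4 of 2/3 and 1 of 3/4) against 17 of lower degree (8 of 1/4 and 9 of 1/3). These 25 are all the dark-cutting steers among the 78 steers sequenced. The other 53, with a normal phenotype, entered no test and are given only as a reference level. All were male Bos indicus x Bos taurus steers. Each gave 1 biopsy of the Longissimus lumborum, the loin muscle along the spine, whose small RNA was sequenced and counted for each mature miRNA. The labels name no treatment, age, litter or slaughter day. They do not say what the fraction measures, and the degree 3/4 rests on a single animal.

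A miRNA is a short RNA that guides the silencing complex to messenger RNAs with a matching site, usually through its seed near the 5′ end, and lowers the protein they give. Skeletal muscle is dominated by a few of them, the myomiRs, which are switched on with the fibre programme and tune contractile genes, fibre type and growth. Dark-cutting is known to follow a loss of muscle glycogen before slaughter, which leaves little substrate for the lactic acid that normally lowers the pH of meat. miRNAs that act on glucose use, fibre type, muscle loss and imprinted growth control were therefore listed beside markers of the other cells a biopsy can hold.

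The libraries held 2687185 to 4370459 counts. miR-1 took 83.9% ± 1.59 (SD, n = 8) of the counts at higher degree and 83.8% ± 2.30 (SD, n = 17) at lower degree. Libraries of higher degree held 407 ± 16.5 detected miRNAs and 6.78% of counts outside the 10 most abundant, against 402 ± 18.5 and 6.60%. For these 3 measures and the total count, the adjusted p of an exact two-sided permutation test was 0.925 to 0.936. The biopsies read as muscle. miR-1 and miR-133a were among the 3 most abundant miRNAs, while miR-122 of liver had 4 counts in all 25 libraries together and miR-124a and miR-124b of neurons had 0. Other miRNAs listed for these tissues were present. For liver, miR-192 had 3878 counts and miR-194 had 8847. For nerve, miR-128 had 28742, miR-9-5p had 579 and miR-129-5p had 9. Because miR-1 fills most of each library, every level below is relative to the other miRNAs of the same library. Less of a miRNA per cell and fewer cells that make it cannot be told apart in such tissue.

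No miRNA separated higher from lower degrees. Of 251 miRNAs with enough counts to test, 0 (0%) passed an adjusted p of 0.05 in edgeR's quasi-likelihood test, in which p-values were adjusted by Benjamini-Hochberg over all 251. DESeq2 and limma-voom also called 0. An unadjusted p under 0.05 was reached by 6 miRNAs (2.39%), of which 3 were higher (1.2%) and 3 lower (1.2%) at higher degree. The number was 7 with DESeq2 and 5 with limma-voom. It rose to 10 without either degree 1/2 replicate 1 or degree 2/3 replicate 2, and was 4 without either degree 1/2 replicate 3 or degree 2/3 replicate 4. No miRNA had groups that did not overlap (0%).

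The differences were small as well as unsupported. Fitted log2 fold changes, given throughout as higher minus lower degree, ran from -0.70 to 0.65. Their median was -0.021 and their quartiles were -0.12 and 0.078. Only 8 of the 251 were 0.5 or more from 0 and 0 reached 1. The 95% intervals were taken for each miRNA alone, without adjustment over the 251. A 2-fold difference in either direction lay outside the interval for 240 miRNAs (95.6%), and a 1.5-fold difference for 163 (64.9%). They say nothing of the 779 miRNAs that were not tested.

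The intervals were typically narrower for more abundant miRNAs, though single ones differed. miR-143, at a mean of 76788 counts, had an SE of 0.19, and miR-664b, at 50, had 0.14. The spread between steers also enters the interval, and its part was not tested. For the 48 miRNAs with a mean over 1000 counts per library the interval reached a median of 0.24 log2 units to either side of the estimate, or 1.18-fold, and all 48 excluded 1.5-fold. For the 100 with 50 to 1000 counts it reached 0.32, or 1.25-fold, and 88 excluded 1.5-fold. For the 103 with under 50 counts it reached 0.52, or 1.44-fold, and 27 did. Of the 6 miRNAs with an unadjusted p under 0.05, 4 had a mean under 50 counts and 0 a mean over 1000. The 11 miRNAs whose interval still allowed 2-fold had a median of 10.9 counts per library, and the most abundant was miR-885 at 79.8. The plot of difference against abundance shows the estimate of each miRNA against its mean count.

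**Figure D1:**
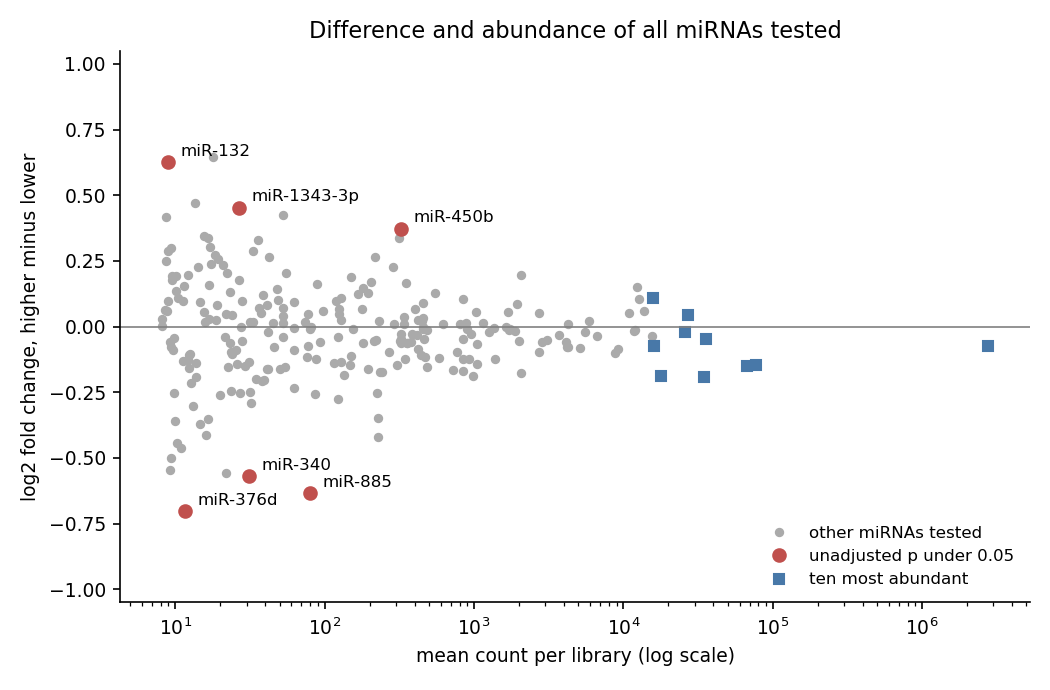
Each point is 1 of the 251 miRNAs tested, with its mean count per library on a log axis and its log2 fold change, higher minus lower degree, on the vertical axis. The 6 miRNAs with an unadjusted p under 0.05 are red and lie toward the left, at 9 to 327 counts, while the 10 most abundant miRNAs, blue squares, lie between -0.19 and 0.11.

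miR-340 had the smallest p and was lower at higher degree. miR-340 is a broadly expressed miRNA that in the human genome lies in an intron of RNF130. Levels are log2 CPM, that is the share of a library as CPM after scaling between libraries, on a log2 scale. The 3 steers of degree 1/2 were at 3.11, 2.83 and 2.98. The 4 of degree 2/3 were at 2.73, 2.99, 2.63 and 2.92. The steer of degree 3/4 was at 2.71. All 8 thus lay below the median of the lower degrees, 3.31, whose 17 steers ran from 2.92 to 4.01, so that the groups overlapped only between 2.92 and 3.11. All 8 also lay below the median of the 53 normal steers, 3.29, while 10 of the 17 lower-degree steers lay above it.

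The log2 fold change of miR-340 was -0.57 ± 0.16 (SE), or 1.48-fold lower, with a 95% interval of 1.18 to 1.86-fold (p = 0.00110 by edgeR). Its adjusted p was 0.277, so it did not pass. Over the 25 fits that each left out 1 steer the estimate stayed between -0.59 and -0.51. The adjusted p ran from 0.155 without degree 1/4 replicate 8 to 0.994 without degree 2/3 replicate 1. In the 16 other settings that tested miR-340 its estimate was also below 0, at the weakest -0.39. These values rest on 17 to 43 counts per steer at higher degree and 19 to 60 at lower degree.

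miR-885, an miRNA known for its high level in liver, was the next and also lower at higher degree. Its levels were 4.93, 3.22 and 3.51 at degree 1/2, then 3.97, 4.54, 3.97 and 4.24 at 2/3, and 3.94 at 3/4. The 17 lower-degree steers ran from 2.80 to 5.72 with a median of 4.66, and normal steers had a median of 4.67. All but 1 of the higher-degree steers were below the lower-degree median, but they lay wholly inside the lower-degree range. The log2 fold change was -0.63 ± 0.24 (SE; p = 0.0122, adjusted p = 0.989 by edgeR). It was -0.15 among the 8 steers whose title number is below 600, of which only 2 were of higher degree and 6 of lower. Among the other 17 (6 of higher and 11 of lower degree) it was -0.79. The labels do not say what the title number marks.

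miR-376d, a member of the imprinted DLK1-DIO3 cluster, had the largest negative estimate and few counts. It stood at 1.60, 1.65 and 1.94 at degree 1/2, at 1.38, 1.91, 1.83 and 1.38 at 2/3 and at 0.025 in the steer of degree 3/4, where it had 2 counts. Lower-degree steers ran from 0.012 to 2.82 around a median of 1.95. All 8 were below that median, some of them barely. The log2 fold change was -0.70 ± 0.32 (SE; p = 0.0334, adjusted p = 0.989 by edgeR), and it was -0.51 without the steer of degree 3/4.

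Among miRNAs higher at higher degree, miR-1343-3p had the smallest p. Levels were 3.17, 2.51 and 3.84 at degree 1/2, then 3.77, 2.79, 3.56 and 2.48 at 2/3, and 3.41 at 3/4. Lower-degree steers ran from 2.27 to 3.30 with a median of 2.91, and the normal median was 2.80. The higher-degree steers were split: 4 stood above every lower-degree steer, and 3 stood below the lower-degree median. The log2 fold change was 0.45 ± 0.19 (SE; p = 0.0226, adjusted p = 0.989 by edgeR).

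miR-450b is encoded in an X-linked cluster together with miR-424, miR-503 and miR-542. It is the most abundant of the 6, at a mean of 327 counts per library. Levels were 6.85, 6.65 and 6.73 at degree 1/2, then 7.05, 5.80, 7.26 and 6.80 at 2/3, and 6.66 at 3/4. Of the 8 steers, 7 lay above the lower-degree median of 6.54, in a range of 5.37 to 6.79, and above the normal median of 6.61. Degree 2/3 replicate 2 alone was low. The log2 fold change was 0.37 ± 0.16 (SE; p = 0.0253, adjusted p = 0.989 by edgeR). Both arms of its cluster neighbour miR-424, which was looked at after these values were seen, had estimates of the same sign, 0.15 ± 0.17 for the 5p arm and 0.20 ± 0.22 for the 3p arm. The arms come from a single hairpin, and values for miR-503 and miR-542 are not given here.

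miR-132 is best known from neurons, where the factor CREB switches it on, and is processed from the same transcript as miR-212. It stood at 1.60, 2.00 and 2.45 at degree 1/2, at 2.13, 1.91, 1.37 and 2.30 at 2/3 and at 1.88 at 3/4. All 8 were above the lower-degree median of 1.35, and 2 of them were above the lower-degree range of 0.32 to 2.19. The log2 fold change was 0.63 ± 0.28 (SE; p = 0.0301, adjusted p = 0.989 by edgeR), from 3 to 18 counts per steer.

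**Figure D2:**
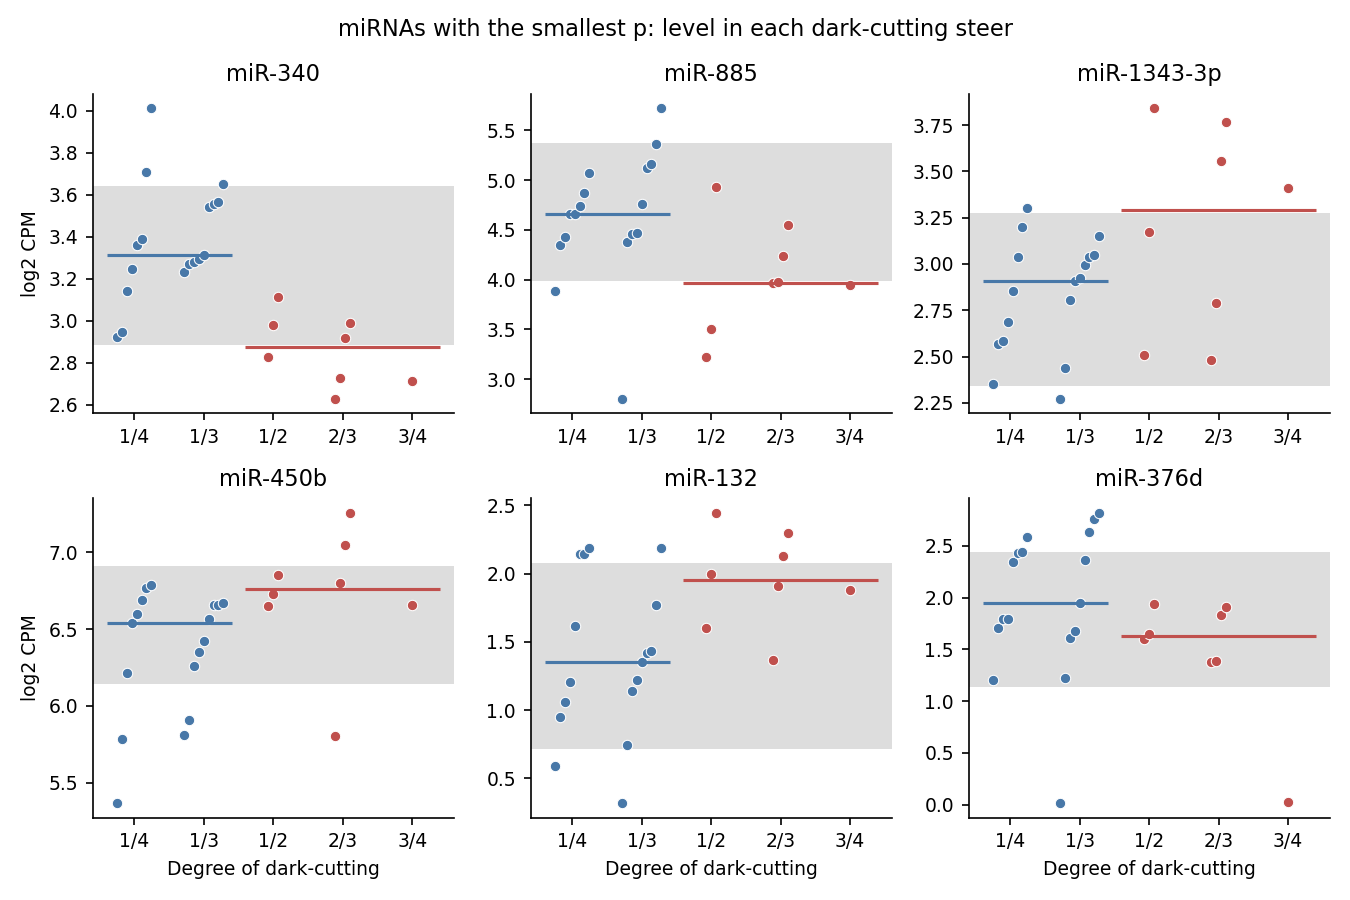
Level of the 6 miRNAs with an unadjusted p under 0.05 in each dark-cutting steer (log2 CPM) by labelled degree, lower degrees in blue and higher in red; lines are medians of the 17 and 8 steers, and the grey band is the mean ± 1 SD of the 53 normal steers. In each panel the 2 colours overlap, least for miR-340, where the red points lie between 2.63 and 3.11 and the blue between 2.92 and 4.01.

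The lower-degree median split the 8 higher-degree steers cleanly for 7 of the 251 miRNAs (2.79%). These were miR-340, miR-376d, miR-500, miR-708 and miR-664b, all 8 steers below, and miR-132 and miR-574, all 8 above. miR-664b and miR-574 were singled out after their values were seen. Their log2 fold changes of -0.16 ± 0.14 (p = 0.260) and 0.20 ± 0.27 (p = 0.477, both edgeR) show that such a split can come with a small or uncertain difference.

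Of the remaining miRNAs among the 10 smallest p in each direction, each had an adjusted p of 0.989 by edgeR. On the higher side stood miR-1260b (log2 fold change 0.65 ± 0.33), miR-655 (0.42 ± 0.23), miR-381 (0.34 ± 0.19), miR-2904 (0.26 ± 0.16), miR-206 (0.15 ± 0.092), miR-425-5p (0.19 ± 0.12) and miR-486 (0.20 ± 0.13). miR-655 and miR-381 belong to the DLK1-DIO3 cluster, as does miR-376d on the other side. On the lower side stood miR-500 (-0.26 ± 0.14), miR-29b (-0.28 ± 0.16), miR-708 (-0.41 ± 0.24), miR-335 (-0.35 ± 0.22), miR-193b (-0.25 ± 0.16), miR-425-3p (-0.44 ± 0.29) and miR-208b (-0.42 ± 0.28). miR-29b represses collagens, miR-335 lies in an intron of the imprinted gene MEST and miR-193b is enriched in fat. Their intervals all cross 0 in the plot of estimates.

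**Figure D3:**
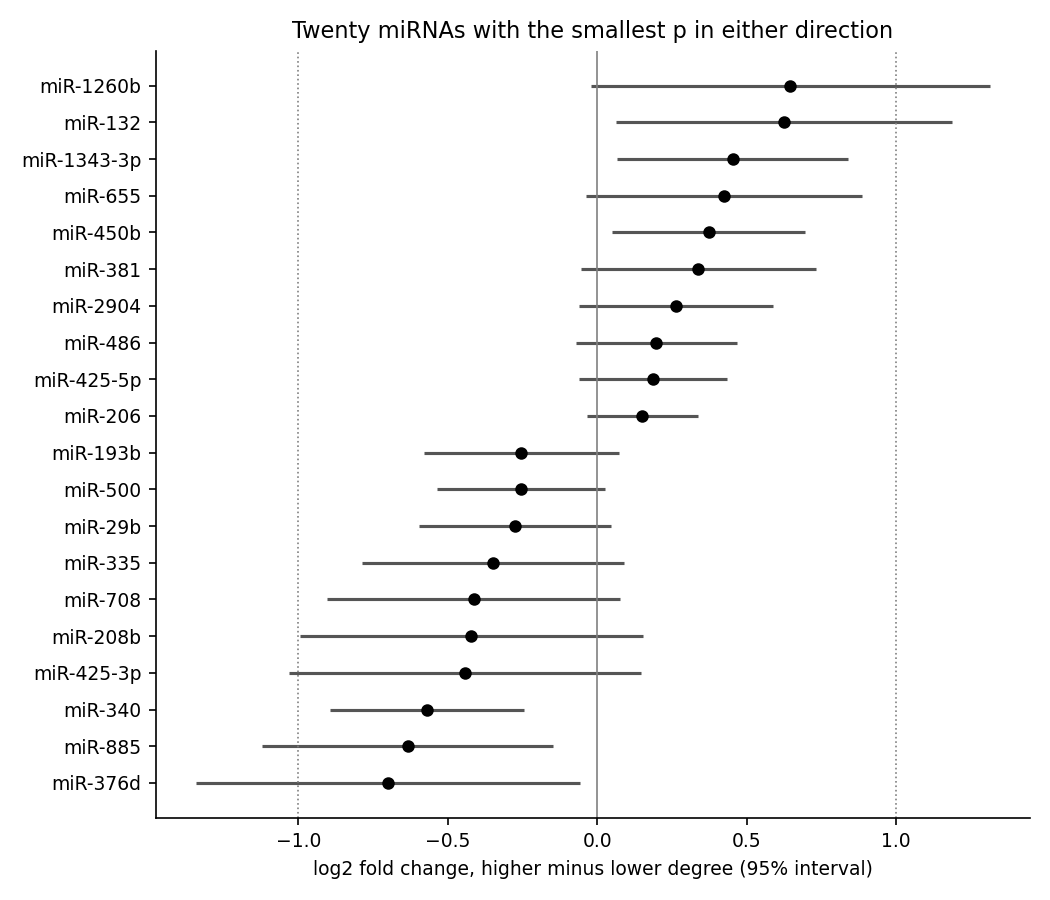
Log2 fold change, higher minus lower degree, with its 95% interval for the 10 miRNAs of smallest p in each direction; dotted lines mark a 2-fold difference. The intervals of 6 miRNAs stop short of 0, and those of the other 14 cross it.

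miR-1260b had levels of 3.66, 2.99, 2.84 and 3.76 at degree 2/3, from 20 to 48 counts. At degree 1/2 they were 1.77, 2.36 and 2.52, and at 3/4 the level was 2.10. Degree 1/3 ran from -0.72, a library with 0 counts, to 3.35 with a median of 2.67, and degree 1/4 from 1.40 to 2.78 with a median of 1.81. The levels of 1/2 and 3/4 and of 2 of the 4 steers of 2/3 thus lay within the range of the lower degrees. Without the 4 steers of degree 2/3 the log2 fold change was -0.11 ± 0.42 (p = 0.787 by edgeR), of the other sign.

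miR-206, a myomiR nearly confined to skeletal muscle and tied to its regeneration, was precise at 8119 to 21265 counts per steer. Higher-degree steers stood at 11.48, 11.90 and 11.79 for 1/2, at 11.56, 12.15, 11.96 and 11.90 for 2/3 and at 12.09 for 3/4. Lower-degree steers ran from 11.36 to 12.02 with a median of 11.72, which 6 of the 8 exceeded. The fold was 1.11, with a 95% interval of 0.98 to 1.26 (p = 0.110 by edgeR). Among the 8 steers with title numbers below 600, only 2 of them of higher degree, the log2 fold change turned to -0.058 ± 0.21.

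The 10 most abundant miRNAs took similar shares of the counts in both classes. After miR-1, miR-143 of smooth muscle took 2.26% of counts at higher and 2.36% at lower degree. miR-133a, which curbs growth signals in fibres, took 1.90% and 2.04%. miR-26a, miR-22-3p, let-7f, miR-30e-5p, miR-499, miR-126-3p and miR-30a-5p took 0.477% to 1.08% each at higher degree. The log2 fold changes of the 10 ran from -0.19 ± 0.13 (SE) for miR-22-3p to 0.11 ± 0.12 for miR-126-3p. miR-1 itself was at -0.074 ± 0.12, with a 95% interval that ended 1.25-fold lower and 1.13-fold higher. Its sign turned to 0.00126 when libraries were scaled by their total count.

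Among the 7 myomiRs tested, 5 estimates were below 0 and 2 above, with 0 called and a median of -0.15. Over all 251 miRNAs 108 (43%) were above 0 and 143 (57%) below, but with total count scaling 142 (56.6%) were above, so a split of signs depends on the scaling. The 2 myomiRs above 0 were miR-206 and miR-486, and total count scaling made it 3 of 7. The slow-fibre pair lies in introns of slow myosin genes, miR-208b in MYH7 and miR-499 in MYH7B. miR-208b was at -0.42 ± 0.28 (SE; p = 0.145) and miR-499 at -0.19 ± 0.16 (p = 0.262, both edgeR), and both stayed below 0 with total count and with DESeq2 size factors. miR-208b varied widely at lower degree, from 4.42 to 7.40 around 5.92, and little at higher degree, from 5.28 to 6.05 around 5.67. All 8 higher-degree steers were below the normal median of 6.11, and so were 9 of the 17 lower-degree steers.

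miRNAs that act on glucose and lipid use were split evenly in the main fit, but the split depended on the setting. Of 8 tested, 4 were above 0 and 4 below, with a median of 0.0076 and estimates from -0.089 to 0.11. DESeq2 size factors and total count scaling each put 6 above. So did no filter, a slope on the degree, leaving out degree 1/2, 1/3 or 2/3, and either range of title numbers. Total count scaling without miR-1 put 7 above, and leaving out degree 1/4 put 3 above. miR-378, which lies in an intron of the mitochondrial coactivator gene PPARGC1B, was at 0.11 ± 0.12 (SE), miR-107 at 0.048 ± 0.15 and miR-103 at -0.011 ± 0.12. miR-27b, a regulator of lipid genes, was at -0.014 ± 0.093 and changed sign with the scaling. Its interval excluded more than 1.15-fold lower and 1.13-fold higher. miR-33a and miR-33b, which sit in introns of the sterol regulator genes, had 154 and 52 counts in all and were not tested.

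Of the miRNAs tied to muscle wasting, 6 of 8 were below 0 (median -0.033) and 0 were called, and total count scaling or DESeq2 size factors made this 4 of 8. Without degree 1/2 the lean turned, with 6 of 8 above 0 (median 0.059), and with a slope on the degree 6 of 8 were above 0 as well. miR-23a, which restrains the atrophy ligases, and miR-23b-3p were at -0.058 ± 0.13 and -0.077 ± 0.11 (SE). The miR-29 family, repressors of collagen and other matrix genes, was listed with both arms of the miR-29d hairpin. All 5 tested entries of this list were below 0, from -0.28 for miR-29b to -0.033 for miR-29a, with total count scaling leaving 4. Its median was -0.16, and 0 were called. Without the steers of degree 1/2 or without those of 1/4, 3 of the 5 were above 0 instead, with medians of 0.020 and 0.0092, and without 2/3 the median was -0.33. All 6 members of the miR-30 family were below 0, between -0.16 and -0.020. With total count scaling 5 were below 0, and without degree 1/2 or without degree 1/3 only 4 were.

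The let-7 family is a set of near-identical miRNAs that hold back growth genes, and reads can be split between its members. The 9 members ran from -0.037 to 0.058 with 3 above 0, but with total count scaling all 9 were above, and with DESeq2 size factors 7 were. Its summed level was 17511 to 23164 CPM at higher degree and 14909 to 23885 at lower degree, so the lower-degree range held the higher one. Near-identical names such as miR-103 and miR-107, or miR-29b and miR-29c, carry the same uncertainty.

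Markers of other cells had overlapping levels in both classes, and 0 of each list were called. The 8 white blood cell miRNAs, such as miR-142-5p, miR-150 and miR-223, summed to 138 to 227 CPM at higher degree (median 184) and 125 to 312 at lower degree (median 188). Of these 7 were below 0 (median -0.092), 4 with total count scaling and 3 among steers with title numbers below 600 (2 of higher degree, median 0.085). The 8 red blood cell miRNAs summed to 1960 to 2295 CPM against 1808 to 2437, with miR-451 at 0.090 ± 0.18 (SE) and miR-144 at 0.27 ± 0.32, and 4 of the 8 were above 0, or 5 with total count scaling. Endothelium had 4 of 4 above 0, also with total count scaling and DESeq2 size factors, with a median of 0.097. Without degree 1/2, and within either range of title numbers (below 600, or 600 or more), 3 of the 4 were above 0. The 4 were miR-221, miR-222 and both arms of miR-126, and the vessel miRNA miR-126-3p was at 0.11 ± 0.12. The list summed to 3798 to 7174 CPM against 3198 to 6272.

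Smooth muscle and pericytes were represented by miR-143 and miR-145, at -0.15 ± 0.19 and -0.046 ± 0.14 (SE), and without degree 1/4 both were above 0 (median 0.082). They summed to 12704 to 26021 CPM at higher and 12869 to 52535 at lower degree. Of the 5 fibroblast miRNAs 2 were above 0, or 3 with total count scaling, and miR-21-5p was at 0.053 ± 0.097. Leaving out degree 1/4 put 0 of the 5 above 0 (median -0.12), and leaving out degree 1/3 put 4 above. Among title numbers below 600, with 2 steers of higher degree, all 5 were above 0 (median 0.38). Nerve gave miR-9-5p at -0.061 ± 0.27 and miR-128 at 0.012 ± 0.14, and liver gave miR-192 at -0.0092 ± 0.15 and miR-194 at -0.063 ± 0.14. With total count scaling both nerve miRNAs and 1 of the 2 liver miRNAs were above 0. The skin markers miR-200a, miR-200b, miR-200c and miR-141 had 1 to 37 counts in all, and the hypoxia miRNA miR-210 had 159, so none of them was tested. The part of these cells in any estimate above was not tested.

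**Figure D4:**
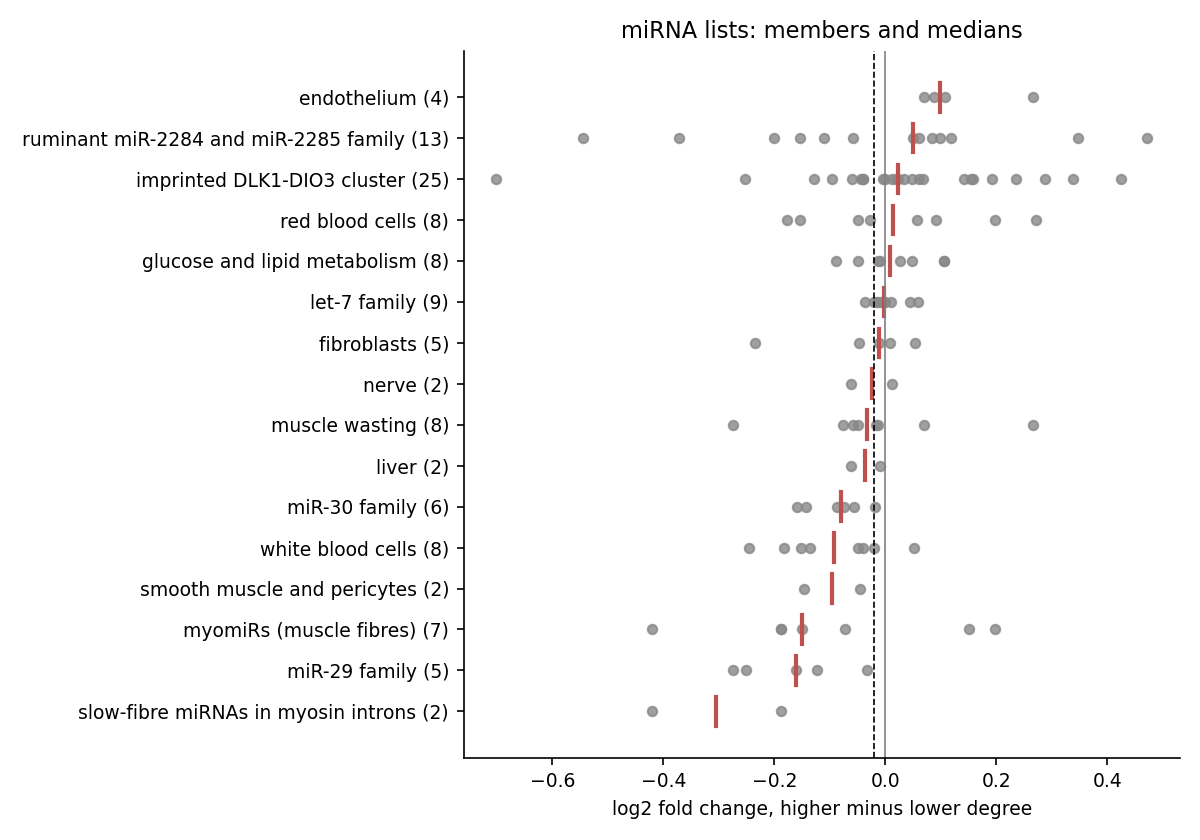
Each grey point is the log2 fold change, higher minus lower degree, of 1 tested member of a list, with the number tested in brackets, the list's median in red and the median of all 251 miRNAs (-0.021) dashed. No member passed the test; list medians lie between -0.30 and 0.097, and those of muscle wasting, let-7, fibroblasts, nerve and liver change sign under at least 1 other scaling of the libraries.

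The imprinted DLK1-DIO3 cluster, a long run of miRNAs expressed from the maternal chromosome and linked to muscle growth in sheep, held members at both ends of the range. Of 25 tested, 15 were above 0 and 10 below (median 0.023, 0 called), or 18 above with total count scaling. The majority turned without degree 1/2 (11 above, median -0.051), without degree 1/4 (12 above, median -0.0062) and with a slope on the degree (11 above). miR-655 was the highest at 0.42 and miR-376d the lowest at -0.70, although they come from one locus. The abundant member, miR-411a, was at 0.012 ± 0.16 (SE). miR-381 was at 7.09, 6.21 and 7.34 log2 CPM at degree 1/2, at 6.77, 5.38, 5.83 and 7.15 at 2/3 and at 6.42 at 3/4. Degree 2/3 alone thus covered almost the whole lower-degree range of 5.75 to 7.32, around a median of 6.14. miR-655 showed the same order of steers at 2/3, with 3.74, 2.71, 3.39 and 4.57. The 25 members summed to 507 to 1172 CPM at higher degree and 503.7 to 1073 at lower degree.

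Of the ruminant miR-2284 and miR-2285 family, 13 of 148 listed members had enough counts, with 7 above 0 and 6 below (median 0.050, 0 called), or 5 above without degree 1/3 (median -0.14). They ran from -0.54 ± 0.63 (SE) for miR-2284a to 0.47 ± 0.33 for miR-2285b, both with wide intervals. miR-2284x, the most abundant, was at -0.059 ± 0.093. Its levels were tight in both classes, 6.51 to 6.85 against 6.58 to 6.97. The family's many near-copies share sequence, so its single values are uncertain.

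Arms of one hairpin come from the same precursor, and both arms were tested for 18 hairpins. The estimates had the same sign in 12. miR-425 had arms furthest apart, with the 5p arm at 0.19 ± 0.12 (SE) from a mean of 150 counts and the 3p arm at -0.44 ± 0.29 from 10.3 counts. The difference between arms was not tested. miR-22 had both arms below 0, at -0.021 ± 0.11 and -0.19 ± 0.13, and miR-126 both above, at 0.087 ± 0.13 and 0.11 ± 0.12.

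The first 2 principal components did not sort the steers by degree either, and later components were not tested. On principal component 1, which carried 17.6% of the variance in log2 CPM of the 251 miRNAs, higher-degree steers averaged -0.073 ± 2.48 (SD, n = 8) and lower-degree steers 0.034 ± 3.56 (SD, n = 17; exact two-sided permutation p = 0.939). On component 2, with 8.36%, the means were 0.50 ± 2.67 and -0.24 ± 2.00 (exact permutation p = 0.444). Adjusted over the 2 components these were 0.939 and 0.887.

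**Figure D5:**
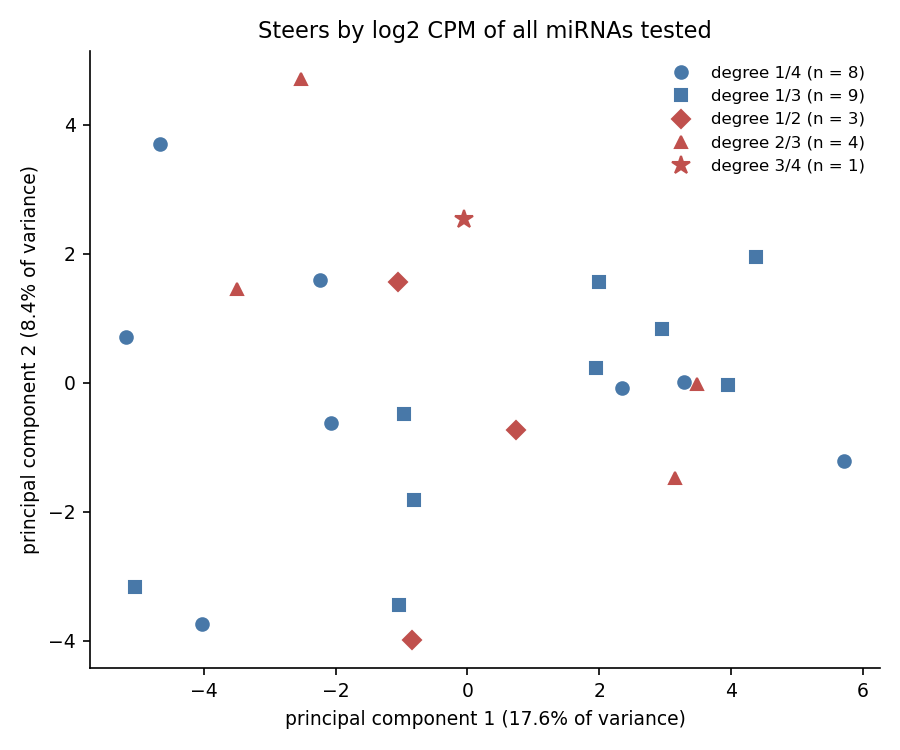
Each point is 1 of the 25 dark-cutting steers on principal components 1 and 2 of log2 CPM over the 251 miRNAs tested, with lower degrees in blue and higher degrees in red, and a shape for each degree. Red and blue points are mixed, with red between -3.50 and 3.49 on component 1 and blue between -5.18 and 5.72.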

How the data were processed

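Small RNA libraries were made from total RNA of muscle biopsies using a NEXTflex kit for small RNA, per the labels' protocols. The authors deposited raw counts per bovine mature miRNA, 1030 in all. FastQC, Trimmomatic 0.32 and DESeq2 1.34.0 are named in the submitters' processing notes; for the aligner, the miRNA reference and reads that match several miRNAs, nothing is given in the sources used here. The authors' own table of test results was not used.

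Only the 25 dark-cutting libraries were fitted. To be tested, a miRNA had to reach, in 8 or more libraries, the CPM that 10 counts make, and to total 15 or more: 251 were tested and 779 were not, 398 of which had some count. Counts were scaled by TMM (factors 0.693 to 1.33) and tested by edgeR 4.0.16 (robust quasi-likelihood F test, R 4.3.3) with Benjamini-Hochberg adjustment over all 251, at a threshold of 0.05. In the edgeR fits each SE was the absolute log2 fold change divided by the square root of F, and intervals used the t distribution. Log2 CPM used a prior count of 2. DESeq2 1.42.0 and limma 3.58.1 were alternatives, and the scripts were tested on simulated data. Single measures and components were compared over all 1081575 splits of 8 and 17 steers. Replicate numbers follow the order of deposit and pair nothing. No library copied another: over 300 pairs, chi-square divided by its degrees of freedom was never under 17. Each steer gave 1 library, so the spread between steers includes that of library making.

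The comparison and the miRNA lists were chosen with earlier results of these data known. Named are the 10 miRNAs of smallest p in each direction, the 10 most abundant, the most abundant tested member of each list, other arms of the 3 with the smallest p (none was tested), miR-1260b and miR-206. Mature sequences were not used here, so miRNAs with a shared seed were not added.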

Additional observations from a re-analysis of the deposited data

Results flagged for a closer look

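For the 40 named miRNAs and the 4 measures of depth and make-up, 176 groups of 4 to 9 steers (each degree with at least 4, and the 8 of higher degree) were checked for a steer that stands apart from its group, by Dixon's 95% critical value. This was met in 8 groups, where chance gives about 1 in 20. Levels are log2 CPM, and none of these steers was left out of the main values.

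Among the 8 higher-degree steers, miR-450b was low in degree 2/3 replicate 2, at 5.80 with the nearest steer at 6.65. miR-376d was low in the steer of degree 3/4, at 0.025 from 2 counts, with the nearest at 1.38. miR-143 was low in degree 1/2 replicate 1, at 13.61 with the nearest at 14.17. The log2 fold changes of these 3 miRNAs without each steer in turn ran from 0.29 to 0.47, from -0.79 to -0.51 and from -0.19 to -0.031.

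Within degree 1/3, miR-1260b was at -0.72 in replicate 9, a library with 0 counts of it, and the nearest was at 1.48. miR-885 was low in replicate 6 of the same degree, at 2.80 with the nearest at 4.38.

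Within degree 1/4, miR-655 was high in replicate 2, at 4.78 with the nearest at 3.74. miR-708 was low in replicate 7, at 0.75 from 3 counts, with the nearest at 2.35. miR-378 was high in replicate 1, at 12.50 with the nearest at 11.80. These 8 values come from 8 different steers.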

How the results depend on the processing

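Whether any 1 of the 25 steers was left out or any of 17 other settings was used, 0 miRNAs were called. With 1 steer left out, the smallest adjusted p ran from 0.155 to 0.994. The number at an unadjusted p under 0.05 was 33 of 649 miRNAs without a filter, 2 of 152 with a stricter filter of 50 counts (miR-340 was then not tested), 10 in steers with title numbers below 600, and 4 to 10 with 1 steer left out. Of 40 named miRNAs, 20 never changed sign. Among 1671 values, 102 had the other sign, as follows for log2 fold changes (for the slope, log2 units per unit of degree). miR-27b was at 0.00313 with DESeq2 size factors or the DESeq2 test, 0.034 with total count, 0.040 and 0.00263 without miR-1 (total count and TMM), 0.00677 without a filter, 0.055 without degree 1/2, 0.061 without 2/3, 0.093 in title numbers of 600 or more and 0.013 as a slope on the degree. miR-30e-5p was at 0.056 with total count, 0.046 so without miR-1, 0.00476 with limma-voom, 0.053 without 1/2, 0.076 without 1/4 and 0.050 in numbers of 600 or more. miR-29a was at 0.00969 with total count, 0.018 so without miR-1, 0.034 without 1/2 or without 1/4 and 0.10 in numbers below 600. miR-146a was at 0.020 with total count, 0.035 so without miR-1, 0.00373 with limma-voom, 0.11 without 1/2 and 0.17 without 1/4. miR-411a was at -0.00101 with limma-voom, -0.051 without 1/2, -0.11 without 1/3, -0.072 in numbers below 600 and -0.26 as a slope. miR-1 was at 0.00126 with total count and 0.011 without 1/2. miR-26a was at 0.00507 without miR-1 by total count and 0.33 in numbers below 600. miR-128 was at -0.00368 with the stricter filter and -0.092 without 1/4. miR-194 was at 0.055 without 1/4 and 0.011 in numbers of 600 or more. miR-2284x was at 0.013 without 2/3 and 0.014 in numbers of 600 or more. Without 1/3 miR-30a-5p was at 0.014, without 1/4 miR-143 was at 0.13 and miR-21-5p at -0.025, and without 2/3 miR-1260b was at -0.11. In numbers below 600 miR-2904 was at -0.15, miR-206 at -0.058, miR-133a at 0.11, miR-126-3p at -0.018 and miR-16a at 0.00990. Only 2 of the steers with numbers below 600 were of higher degree. Single steers left out gave both signs for let-7f (-0.00203 to 0.10), miR-128 (-0.055 to 0.11), miR-146a (-0.23 to 0.058), miR-21-5p (-0.00521 to 0.11), miR-26a (-0.090 to 0.019), miR-27b (-0.052 to 0.055), miR-29a (-0.051 to 0.034), miR-30a-5p (-0.15 to 0.00301), miR-30e-5p (-0.065 to 0.053) and miR-411a (-0.096 to 0.087). The cause was not tested for any of these. Counting identical rows once was not run, since no tested rows were identical. No paired analysis was possible because replicate numbers only follow the order of deposit. The median interval was widest for the 103 miRNAs under 50 counts, of which 27 exclude a 1.5-fold difference.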
